A study of Homo sapiens with 3 samples.

Results

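The transcripts of 10 genes of the bone morphogenetic protein (BMP) pathway were measured by RNA-Seq in DLD1, a long-established line of colorectal cancer cells. The cells were wild type or had the X-linked gene BEX2 knocked out. The 10 genes were chosen by symbol and matched by Ensembl identifier to the 60504 gene rows of the deposited table. They are the ligands BMP2, BMP4 and BMP7, the receptor BMPR2, the target genes ID1, ID2 and ID3, and the inhibitors SMAD6, SMAD7 and BAMBI. The groups were wild type DLD1 cells (DLD1 control cells, 1 library) and DLD1 cells with BEX2 knocked out by CRISPR/Cas9 (BEX2-/- DLD1 cells, 2 libraries, KO1 and KO2). No drug or other treatment was named for any of them. The knockout libraries are called clone 1 and clone 2 here, because the study screened its clones by sequencing, although the labels do not tie a library to a clone. The study describes a BEX2 knockout DLD1 cell line, so both libraries may also be cultures of the same clone. Each library stands for itself alone. An effect of the knockout and a difference between cultures or clones therefore cannot be told apart within a pair of libraries.

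BMP ligands bind complexes of type I and type II receptors on the cell surface, and the activated receptors phosphorylate SMAD1, SMAD5 and SMAD9, which enter the nucleus with SMAD4. The ID genes are among their best known direct targets and encode inhibitors of basic helix-loop-helix transcription factors. SMAD6, SMAD7 and BAMBI are also induced by this family of signals and restrain them, which closes a feedback loop. In the intestine, BMP signals are strongest towards the differentiated end of the epithelium, and inherited loss of a BMP receptor is a known cause of juvenile polyps. The libraries measured transcripts only, not secreted ligand or SMAD phosphorylation.

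The values are FPKM, the fragments of a gene divided by the length of its exons and by the size of its library, so levels of different genes were compared per length. The depths recovered from the table were 35593989 to 47722374 reads per library, with clone 1 the shallowest. BEX2 itself was at 0 in all 3 libraries, the wild type control included, where 3 reads would have given 0.0535 to 0.0717 FPKM. Its transcript could therefore not check the genotype labels, and these libraries show no loss of an expressed BEX2 transcript. The study had picked DLD1 because its BEX2 protein was rather high among colorectal cancer lines, and protein was not measured in these libraries. Of 9 markers of intestinal epithelium, 8 were above a mean of 1 FPKM, and their summed level was 1601 FPKM in the control, 1675 in clone 1 and 1855 in clone 2. None of 4 fibroblast, 3 endothelial and 4 leukocyte markers reached that mean, and PTPRC, COL3A1, LUM and CDH5 were at 0 in every library. The highest of these was the leukocyte marker CD14, at 0.793 FPKM in the control, 0.760 in clone 1 and 0.7 in clone 2. Ratios between libraries were taken as log2(FPKM + 1), which understates the differences of low genes, and a gene was called in a pair of libraries when it differed at least 2-fold on that scale. Of all genes, 11675 had a mean of at least 1 FPKM and were compared, among them 8 of the 10 BMP pathway genes. BMP7 and SMAD6 were below that level. Both comparisons with the control use the same control library. Intervals given with a fold are exact 95% intervals on the reads and cover counting error only.

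The ligands differed more between libraries than the receptor did, and BMP2 and BMP4 differed from the control in different clones. BMP4 (ENSG00000125378, chr14:53949736-53958761 of GRCh38, minus strand) was the dominant ligand. It measured 216 FPKM in the control, 96.0 in clone 1 and 211 in clone 2, from 31637, 10537 and 31079 reads. The control and clone 2 lay close together and clone 1 was low. Among the genes at 1 FPKM or more, BMP4 ranked 130 in the control, 286 in clone 1 and 124 in clone 2. The level in clone 1 was 2.25-fold below the control (2.203 to 2.302) and 2.2-fold below clone 2 (2.152 to 2.249). Clone 2 was 1.02-fold below the control, and that difference, a log2 ratio of -0.03, became 0.04 when the values were scaled to TPM. In bulk RNA, fewer cells with a transcript and less of it per cell cannot be told apart.

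The promoter of BMP4 is shown because this gene supplied nearly all ligand transcript in every library. The 250 bases before its most upstream RefSeq start (GRCh38.p14, chr14:53955051-53955300, minus strand) are printed 5′ to 3′, with capitals for GTCT, the core of the SMAD-binding element (AGAC on the other strand), and for GGCGCC, a GC-rich sequence that SMAD1 and SMAD5 can also bind.
BMP4: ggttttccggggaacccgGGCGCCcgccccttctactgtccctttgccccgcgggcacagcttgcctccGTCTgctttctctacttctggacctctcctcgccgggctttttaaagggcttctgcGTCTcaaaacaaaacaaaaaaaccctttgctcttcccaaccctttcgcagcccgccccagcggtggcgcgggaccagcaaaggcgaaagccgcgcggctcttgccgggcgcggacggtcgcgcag
The window holds 2 GTCT and 1 GGCGCC. Of 35116 promoter windows of the same length, 77.5% hold GTCT on either strand and 16.4% hold GGCGCC. A match describes letters and is no evidence of binding.

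BMP2 (ENSG00000125845, chr20:6767664-6780280, plus strand), which signals through the same receptors as BMP4, was a minor ligand with the widest range of the 8 genes compared. Its level was 1.45 FPKM in the control, 1.23 in clone 1 and 6.27 in clone 2, from 248, 157 and 1078 reads. Clone 2 was high and the other two libraries were near each other. The fold was 4.32 for clone 2 over the control (3.76 to 4.98) and 5.12 for clone 2 over clone 1 (4.33 to 6.09). Clone 1 was 1.18-fold below the control, with an interval (0.966 to 1.46) that includes no difference. On the log2(FPKM + 1) scale the difference of clone 2 from the control was 1.57, and 0.522% of the genes compared differed by more in that pair. BMP4 still exceeded BMP2 by 149-fold in the control, 78.4-fold in clone 1 and 33.7-fold in clone 2. BMP7 (ENSG00000101144), a ligand best known from kidney and bone, had 1 read in the control and 0 in either clone, where 3 reads would have given 0.0156 FPKM in clone 1 and 0.0116 in clone 2. No difference of BMP7 was detectable at this depth.

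BMPR2 (ENSG00000204217, chr2:202376936-202567751, plus strand), the type II receptor specific for BMP ligands, measured 1.41 FPKM in the control, 1.84 in clone 1 and 2.27 in clone 2, from 793, 779 and 1288 reads. Both clones lay above the control, and clone 2 above clone 1. The folds over the control were 1.31 in clone 1 (1.18 to 1.45) and 1.61 in clone 2 (1.48 to 1.77). It was the only one of the 8 genes for which both clones exceeded the control, an ordering held by 32.4% of all genes compared. BMP4 was the only one that was lower in both clones, as were 27.7% of all genes, and with TPM its level in clone 2 was above the control. Both pseudogenes within BMPR2 were at most 0.239 FPKM in any library.

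**Figure D1:**
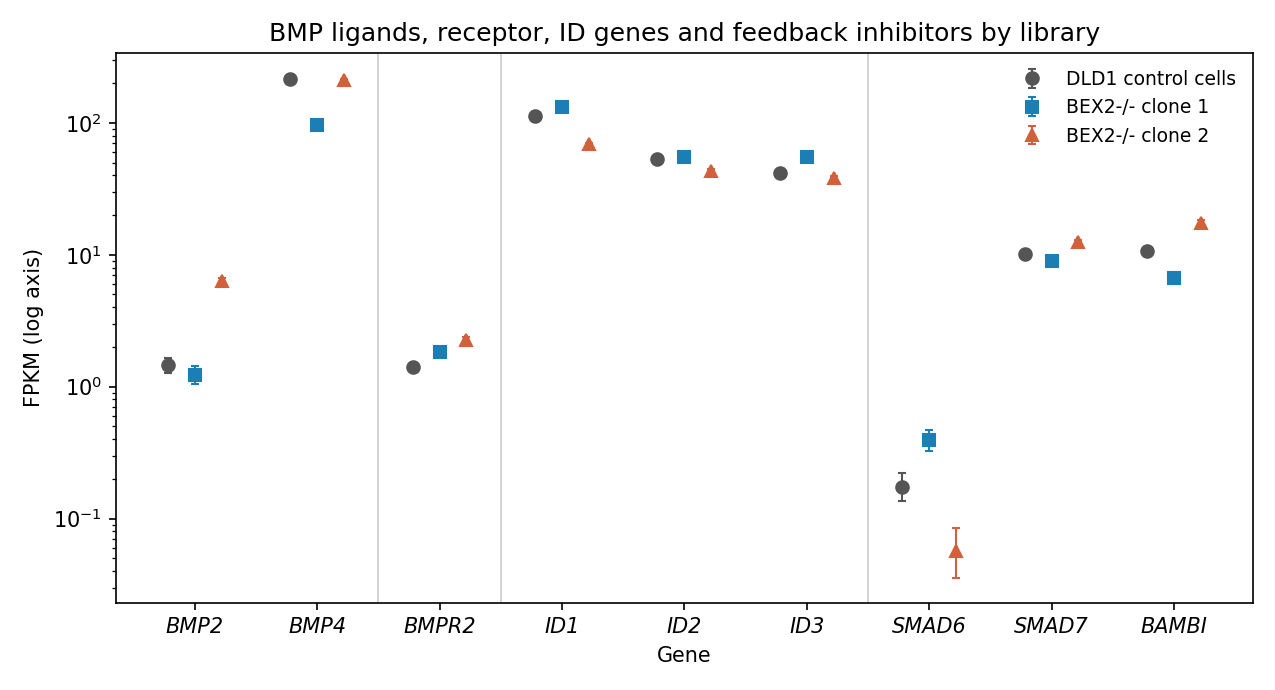
FPKM (log axis) of 9 BMP pathway genes in DLD1 control cells (circles), clone 1 (squares) and clone 2 (triangles), with exact 95% Poisson bars on the reads, most of them smaller than the symbols; BMP7, with at most 1 read, is left out. BMP4 is low in clone 1 alone at 96.0 FPKM, BMP2 is high in clone 2 alone at 6.27 FPKM, and the ID genes and SMAD6 are highest in clone 1 and lowest in clone 2.

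The 3 ID genes, whose products bind E proteins and keep them off DNA, had the same order of libraries. Each was highest in clone 1, intermediate in the control and lowest in clone 2. ID1 (ENSG00000125968, chr20:31605283-31606515, plus strand) measured 112 FPKM in the control, 133 in clone 1 and 68.6 in clone 2, from 6558, 5813 and 4034 reads. Its level in clone 2 was 1.64-fold below the control (1.57 to 1.70) and 1.93-fold below clone 1 (1.86 to 2.01), and that in clone 1 was 1.18-fold above the control (1.14 to 1.23). ID3 (ENSG00000117318, chr1:23557918-23559794, minus strand) measured 41.4 FPKM in the control, 55.2 in clone 1 and 38.2 in clone 2. For ID3 the control lay near clone 2 and clone 1 stood above both, 1.33-fold over the control (1.27 to 1.40). ID2 (ENSG00000115738, chr2:8678845-8684453, plus strand) had the narrowest range, with 53.3 FPKM in the control, 55.4 in clone 1 and 43.1 in clone 2, and clone 2 was 1.24-fold below the control (1.19 to 1.29). The ratio of clone 1 to the control for ID2 had an interval of 0.999 to 1.08, which includes no difference. None of the ID genes reached 2-fold in any pair, beside 2.02% to 4.19% of all genes per pair. The order clone 1, control, clone 2 was held by 23.9% of all genes compared, and it was the most common of the 6 possible orders. The kit kept no strand, and ID2-AS1, an antisense gene over ID2, was at most 0.341 FPKM.

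The windows before the ID starts are shown because the 3 genes kept 1 order and each window holds GTCT followed by AGAC, an inverted repeat of the SMAD core. ID1 is printed from 250 to 7 bases before its start (chr20:31605039-31605282, plus strand), and ID2 (chr2:8681944-8681973, plus strand) and ID3 (chr1:23559637-23559666, minus strand) as 30 bases around the pair, with the same capitals as above.
ID1: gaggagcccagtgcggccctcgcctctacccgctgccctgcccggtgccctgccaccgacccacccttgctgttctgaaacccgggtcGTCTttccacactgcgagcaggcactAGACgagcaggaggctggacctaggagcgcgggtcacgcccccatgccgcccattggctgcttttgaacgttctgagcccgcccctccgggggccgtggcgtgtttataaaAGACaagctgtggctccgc
ID2: cgcccgctcGTCTtgatAGACgtgccacct
ID3: ctccgcgGTCTtcggcgtcAGACcagccgg
The pair spans 30 bases in ID1, 12 in ID2 and 16 in ID3. The rule of GTCT followed by AGAC within 30 bases was set after the windows had been seen, with ID1's own span as its limit, and 4.76% of the 35116 windows meet it. SMAD6 with a span of 8 bases and the second listed start of SMAD7 with a span of 21 also meet it, so 5 of the 12 windows of these genes do, in 5 of the 8 genes that had any. ID1 also holds TATAAA from 31 to 26 bases before its start, a motif in 10.7% of windows, and ID2 holds 3 CCAAT on either strand, a motif in 32% of windows. The E-box CANNTG, found in 61.8% of windows, is in the window of ID2 and not in those of ID1 or ID3.

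Markers of intestinal epithelium were not level across the same libraries. Of the 9, 5 (EPCAM, VIL1, CDX1, CDX2 and CEACAM5) had the order of the ID genes, beside 23.9% of all genes compared. CDX1 was below a mean of 1 FPKM and so not among the genes compared, and EPCAM in clone 1 was only 1.06-fold above the control. CDX2, a transcription factor of intestinal identity, measured 33.3 FPKM in the control, 43.2 in clone 1 and 24.0 in clone 2. VIL1, which encodes the brush border protein villin, measured 3.61, 13.2 and 0.221 FPKM in the same order, and CEACAM5, a colonic surface antigen, measured 0.742, 18.3 and 0.119. KRT8, KRT18, KRT19 and CDH1 did not keep this order. Their part in the ID values was not tested.

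The inhibitors did not share 1 order. BAMBI and SMAD7 were highest in clone 2 and lowest in clone 1, as BMP2 was, whereas SMAD6 had the order of the ID genes. BAMBI (ENSG00000095739, chr10:28677342-28682939, plus strand), a pseudoreceptor without a kinase domain, measured 10.8 FPKM in the control, 6.63 in clone 1 and 17.5 in clone 2, from 1181, 546 and 1937 reads. The control lay between the clones, with clone 1 1.62-fold below it (1.46 to 1.80) and clone 2 1.63-fold above it (1.52 to 1.75). Clone 2 was 2.65-fold above clone 1 (2.40 to 2.92). The start of the window before BAMBI is shown because that window holds 3 GGCGCC, as do 0.527% of windows. The window is also 81.2% G or C, against a median of 58% over all windows, and 1.99% of windows have more. A motif made of G and C alone is more likely in such a window. Printed are 250 to 180 bases before the start (chr10:28677271-28677341, plus strand), and the last of the 3 lies across the end of the printed stretch.
BAMBI: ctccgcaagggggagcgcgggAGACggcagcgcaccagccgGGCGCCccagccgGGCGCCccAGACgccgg
SMAD7 (ENSG00000101665, chr18:48919853-48952052, minus strand), which blocks receptors of both the BMP and the TGF-beta branch, measured 10.2 FPKM in the control, 8.90 in clone 1 and 12.4 in clone 2, and clone 2 was 1.39-fold above clone 1 (1.297 to 1.497). SMAD6 (ENSG00000137834, chr15:66702228-66782848, plus strand), which acts mainly on the BMP branch, was below 1 FPKM throughout, with 0.175 in the control, 0.394 in clone 1 and 0.0563 in clone 2. Those values rest on 71, 120 and 23 reads. Even so, clone 1 was 6.995-fold above clone 2 (4.45 to 11.5) and 2.25-fold above the control (1.67 to 3.07) in FPKM without the added 1. SMAD7 exceeded SMAD6 by 58.2-fold in the control, 22.6-fold in clone 1 and 220-fold in clone 2.

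The genes called at 2-fold were BMP4, BMP2 and BAMBI. In clone 1 against the control BMP4 was called lower and none higher, where 0.959% of all genes were called lower, 1.06% higher and 2.02% either way. In clone 2 against the control BMP2 was called higher and none lower, where 1.33% of all genes were called higher, 0.737% lower and 2.06% either way. Between the clones, BMP2, BMP4 and BAMBI were called higher in clone 2 (3 of 8) and none lower, where 2.51% of all genes were called higher, 1.68% lower and 4.19% either way. By the order of the libraries from high to low, clone 1, control, clone 2 held ID1, ID2 and ID3, and clone 2, control, clone 1 held BMP2, SMAD7 and BAMBI, an order of 16.1% of all genes. BMP4 was in the order control, clone 2, clone 1 (10.6% of all genes), which with TPM became clone 2, control, clone 1, and BMPR2 in the order clone 2, clone 1, control (15.5%). None of the 8 was in the orders control, clone 1, clone 2 (17.1%) or clone 1, clone 2, control (16.8%). The members were chosen with earlier results of these data known, so these counts are a description.

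Knockout and control were then compared across all 11675 genes with limma on log2(FPKM + 1). The spread of each gene between the clones was moderated towards that of all genes (2.48 prior and 1 residual degrees of freedom). The lone control was assumed to vary as the clones do. No gene passed an adjusted p of 0.05 (0% called), and 148 genes (1.27%) had an unadjusted p under 0.05, none of them among the 8. BMPR2 had the smallest p of the 8, with a log2 difference of 0.34 ± 0.21 (SE) and an unadjusted p of 0.1885 (adjusted p = 0.9998, limma). The differences of BMP2 (0.71 ± 0.82, SE) and BMP4 (-0.60 ± 0.56, SE) were of the size of their errors, because the clones differed in each. BMP2 had a mean of 3.75 ± 3.57 FPKM over the clones (SD, n = 2) and BMP4 a mean of 154 ± 81.5 FPKM (SD, n = 2). ID1, at 100.5 ± 45.2 FPKM (SD, n = 2), had a log2 difference of -0.23 ± 0.47 (SE), and BAMBI, at 12.1 ± 7.72 FPKM (SD, n = 2), had 0.02 ± 0.62 (SE). An exact permutation test of 1 library against 2 cannot give a p below 1 in 3 and was not used.

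Set against each other, ligand and target levels had different orders of libraries. The summed level of BMP2, BMP4 and BMP7 was 218 FPKM in the control, 97.3 in clone 1 and 218 in clone 2, and BMP4 made up 99.3%, 98.7% and 97.1% of it. The summed level of ID1, ID2 and ID3 was 207 FPKM in the control, 243 in clone 1 and 150 in clone 2, and ID1 made up 54.2%, 54.5% and 45.8% of it. The library with the least ligand transcript, clone 1, therefore had the most ID transcript. Clone 2 was close to the control in summed ligand, with a log2 ratio of -0.0011 in FPKM, and had the least ID transcript. Its BMP2 was higher and its BMP4 slightly lower, with a log2 ratio of BMP4 of -0.03 that became 0.04 with TPM. The ratio of BMP4 to ID1 was 1.93 in the control (1.88 to 1.98), 0.725 in clone 1 (0.702 to 0.749) and 3.08 in clone 2 (2.98 to 3.19). It was 2.66-fold lower in clone 1 and 1.60-fold higher in clone 2 than in the control, and it differed 4.25-fold between the clones. The ratio of BAMBI to ID1 had the same order, with 0.05005 in clone 1, 0.09596 in the control and 0.2559 in clone 2. With 3 libraries no correlation was computed.

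Beyond the 10 genes, 78 further genes of the BMP and TGF-beta pathways were examined, with 3 E proteins that ID proteins bind counted among them. Of the 78, 36 had a mean of at least 1 FPKM. In clone 1 against the control, 2 of the 36 were called lower, beside 0.959% of all genes, and none higher. In clone 2 against the control, 2 were called higher, beside 1.33% of all genes, and none lower. Between the clones, 5 of the 36 were called higher in clone 2, beside 2.51% of all genes, and none lower, with a median log2 ratio of 0.14 against -0.05 over all genes compared. The 5 were TGFB1, TGFB2, TGFBI, CDKN2B and MSX2. TGFB1, the main TGF-beta ligand of the intestine, measured 10.9 FPKM in the control, 3.46 in clone 1 and 13.5 in clone 2. TGFB2, a second TGF-beta ligand, measured 2.48, 1.28 and 5.39 FPKM. TGFBI, an extracellular matrix gene induced by TGF-beta, measured 9.05, 1.89 and 20.2 FPKM, a 10.7-fold difference between the clones. CDKN2B, which encodes the cell cycle inhibitor p15 and is a TGF-beta target, measured 0.379, 0.879 and 5.71 FPKM. All but CDKN2B had the order of BMP2, SMAD7 and BAMBI, in which the control lies between a low clone 1 and a high clone 2. That order was held by 16 of the 36 genes, beside 16.1% of all genes compared. Some held it by narrow margins. In clone 1 the log2 ratio to the control was -0.0064 for SMURF2, -0.0143 for TCF12 and -0.0519 for SKI. SMURF2 was named after its values had been seen. Whether these genes keep the order with another scaling was not tested.

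**Figure D2:**
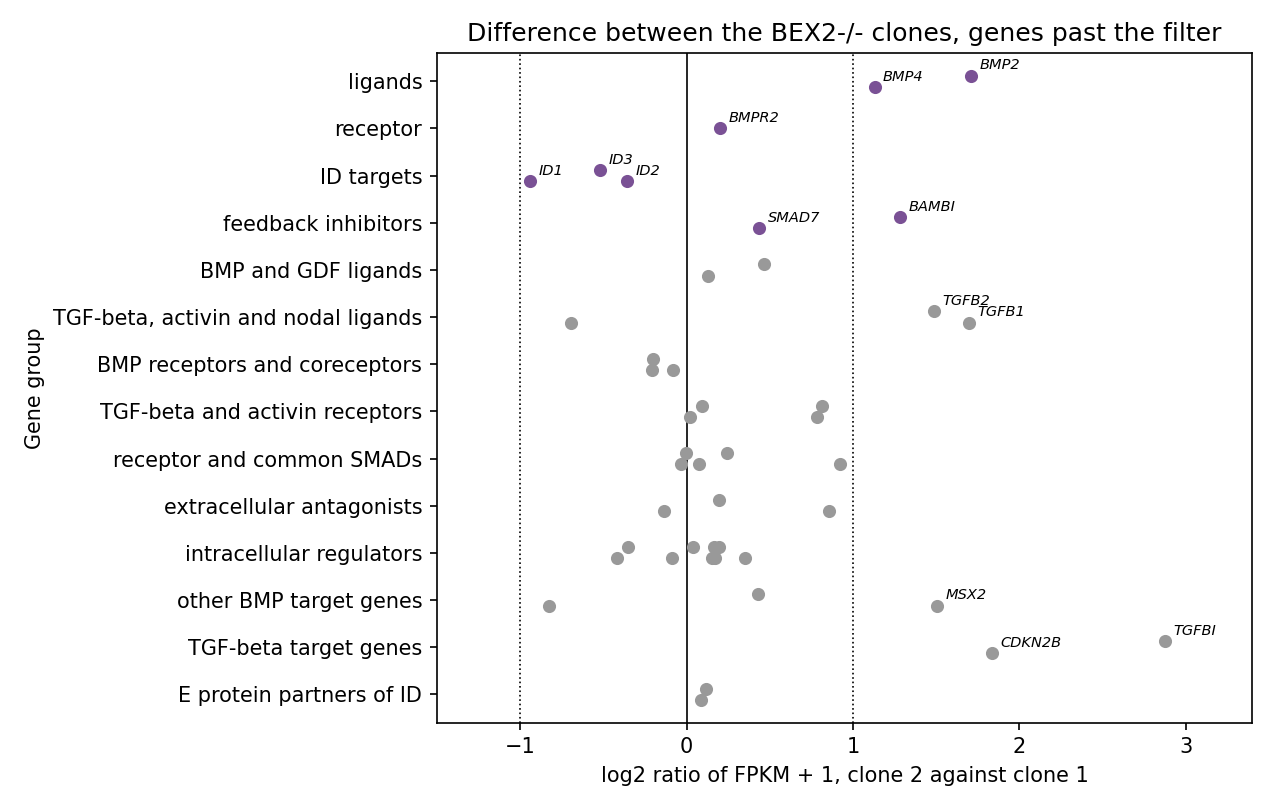
Log2 ratio of FPKM + 1 of clone 2 against clone 1 for the 8 BMP pathway genes (purple) and 36 further pathway genes (grey), 1 row per gene group, with dotted lines at 2-fold. BMP2, BMP4, BAMBI and 5 of the grey genes lie past the right line, ID1, ID2 and ID3 lie left of 0, and none lies past the left line.

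Of 7 other BMP target genes examined, 3 had a mean of at least 1 FPKM, and they did not share 1 order. MSX2, a homeobox gene induced by BMP, measured 9.17 FPKM in the control, 5.83 in clone 1 and 18.4 in clone 2 and followed BAMBI. MSX1, a related homeobox gene, measured 5.71, 4.49 and 6.41 FPKM in that same order. ATOH8, a helix-loop-helix gene and BMP target, measured 1.35, 1.58 and 0.452 FPKM and had the order of the ID genes. ID4 and DLX5 were at 0 in all 3 libraries. MSX1, ATOH8, ID4 and DLX5 were named after their values had been seen. The type I receptor ACVR1 measured 3.01, 3.36 and 2.79 FPKM and the type II receptor ACVR2A 2.22, 2.49 and 2.30 FPKM. SMAD5, the most abundant of the BMP SMADs, measured 4.15, 4.81 and 5.11 FPKM. None of these receptors and SMADs was called in any pair, beside 2.02% to 4.19% of all genes per pair.

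Among 6297 genes with a mean of at least 5 FPKM, those whose ratios lay nearest to those of BMP2 were DUSP5, LIF, IFNGR1, OPTN and NFKBIZ. Nearness was the Euclidean distance between the log2 ratios of each clone to the control, over the 3 libraries, and ran from 0.103 for DUSP5 to 0.206 for NFKBIZ. DUSP5, a phosphatase of ERK, measured 8.30 FPKM in the control, 6.95 in clone 1 and 27.7 in clone 2. LIF, a cytokine of the interleukin-6 family, measured 13.6, 11.4 and 40.0 FPKM. All 5 were high in clone 2 alone, which follows from choosing them by nearness to BMP2 and is no separate result.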

How the data were processed

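Total RNA of 1 library of DLD1 control cells and 2 of BEX2-/- DLD1 cells was prepared with the Illumina TruSeq RNA kit. The authors deposited FPKM values per gene. Their processing notes list Trim Galore 0.3.7, STAR 2.5, Cufflinks 2.2.1, DESeq 1.22.1 and hg19, and the annotation is not given in the sources used here. Of the 60504 Ensembl identifiers, 56996 are in GENCODE release 29 on GRCh38, which gave symbols, positions and exon lengths, so positions are of GRCh38 and not of hg19. Whole reads were recovered by multiplying FPKM by exon length and depth. A value counted as whole within 0.02, which was so for 98.71% to 98.92% of the low values in genes with 1 transcript and 88.89% to 89.76% in others. For BMPR2 and SMAD7 no whole reads came from the annotated length, and the length that gave them in all 3 libraries was used (50% to 120% of the annotated length searched, tolerance 0.002 reads). Intervals are exact Poisson or Clopper-Pearson intervals on these reads. PCR copies are not independent molecules, so they cover counting error only.

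Genes were compared where the control value and the clone mean averaged 1 FPKM or more, as log2(FPKM + 1). The 2 knockout libraries were treated as replicates in limma 3.58.1 (R 4.3.3), without trend, with Benjamini-Hochberg adjustment and a threshold of 0.05. Single pairs of libraries had no test and a 2-fold threshold. The p-values rest on the spread between these libraries and on the spread that limma shares over genes. The labels do not tie the libraries to separate cultures. limma was also run on simulated data built from the mean levels and spread of the real fit, and that outcome is not given here. The members, the lists, the markers and the motifs were chosen with earlier results of these data known. Genes named were the members, BEX2, pathway genes past 2-fold in any pair, otherwise the 2 highest of each list, and the 5 genes nearest to the member of widest range. Pathway genes outside this rule are marked in the text as named after their values had been seen. Promoter windows came from RefSeq (GRCh38.p14) for 8 of the 10 genes, 12 windows in all, the 50 bases after the start left out. BMP2 and BMP7 had no entry. The Python packages were pandas 2.3.3, numpy 2.4.6, matplotlib 3.10.9 and scipy 1.17.1 (Python 3.11.15). Results were recomputed with TPM or median-ratio scaling, 0.1 FPKM as pseudocount, other filters, a 1.5-fold threshold, a mean-variance trend in limma and each clone left out. Results for 1 gene of the lists are not reported here.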

Additional observations from a re-analysis of the deposited data

How the results depend on the processing

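Depth, 1 control library and clones that differed from each other limit these results. Of the 30 log2 ratios of the 10 genes, 1 changed sign with the scaling, that of BMP4 in clone 2 against the control (-0.03, and 0.04 with TPM). The main counts of genes past 2-fold were 236 (clone 1 against control), 241 (clone 2 against control) and 489 (between clones). They became 456, 507 and 863 with a pseudocount of 0.1 FPKM, 1028, 1090 and 1515 of 15841 genes with TPM, 83, 100 and 222 with a mean of at least 5 FPKM, and 730, 973 and 1444 at 1.5-fold, where the number of members past the threshold went from 1 to 2 in clone 1 and from 1 to 3 in clone 2. Median-ratio scaling gave 232, 248 and 499. FPKM summed to 260686 to 273924 per library, less than TPM values do, so scaling to TPM raised every value. The added 1 and the filter at 1 stayed the same, so the TPM counts also reflect a relatively smaller pseudocount and a looser filter. With a mean of at least 5 FPKM, 0 of 6 members were past 2-fold in clone 2 against the control, since BMP2 was not among the 6. No scaling moved the share of higher calls by more than 10 percentage points. limma called 0 genes and 0 members under each setting run, with 56 to 1580 genes at an unadjusted p under 0.05 and the smallest adjusted p between 0.5784 and 0.9999. The log2 ratio of the ligand sum, mean of clones against control, was -0.58 ± 0.82 (SD, n = 2) and ranged from -1.16 to -0.0011 when a clone was left out, and that of the ID sum was -0.12 ± 0.49 (SD, n = 2) and ranged from -0.46 to 0.23. Leaving out clone 1 moved the ligand sum from -0.58 to -0.0011, and leaving out clone 2 turned the ID sum from -0.12 to 0.23. With a clone left out, limma had no residual degrees of freedom, so these are values without a test. No paired analysis was possible because there was 1 control library and no label pairs it with a knockout library.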

Other observations

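Of 15 extracellular antagonists examined, not all of them mainly of BMP, 3 had a mean of at least 1 FPKM, as had 11675 of the 60504 genes in the table. NOG, which encodes noggin, was at 0 in every library. NOG, BMP8A and TCF4 were named after their values had been seen. TWSG1, a BMP-binding protein, was the highest, with 26.8 FPKM in the control, 24.6 in clone 1 and 28.3 in clone 2, and NBL1 measured 8.03, 5.47 and 10.7 FPKM. Of 12 further BMP and GDF ligands, 2 had a mean of at least 1 FPKM, GDF11 at 1.81, 1.45 and 2.38 FPKM and BMP8B at 2.05, 1.45 and 1.68 FPKM. BMP8B and BMP8A are near-identical copies, so the share of reads counted to each is uncertain. Of the E proteins that ID proteins bind, TCF3 measured 27.5, 22.4 and 23.9 FPKM, TCF12 measured 2.70, 2.67 and 2.97 FPKM and TCF4 was below 1 FPKM. All 9 intracellular regulators examined had a mean of at least 1 FPKM and none was called in any pair. Of all genes compared, 2.02% to 4.19% were called per pair, so a lack of calls among 9 genes is near that share. TOB1, which can repress BMP SMADs, was the highest at 14.1, 20.4 and 15.0 FPKM, followed by the corepressor SKI at 8.09, 7.77 and 9.03 FPKM. The receptor TGFBR2 measured 9.63, 9.05 and 16.7 FPKM, TGFBR1 measured 3.968, 3.695 and 4.002 FPKM, and SMAD3 measured 4.42, 2.97 and 6.52 FPKM, none of them past 2-fold on the log2(FPKM + 1) scale.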
